A study of Mus musculus with 6 samples.

Results

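RNA of mouse antral oocytes with a not surrounded nucleolus (NSN) was compared with RNA of antral oocytes with a surrounded nucleolus (SN) on 2-colour microarrays that shared a slide. The comparison used 4 of the 6 samples of the series, 2 pools a class, and the probes whose Cy3 signal was marked well above background on at least 2 of those 4 arrays. That rule kept 28430 of 42006 probes, and 28424 of them had a value on all 4 arrays. The other 6 had a spot marked as uneven on 1 array and were left out of the fit.

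An antral oocyte sits in a follicle that has formed a fluid-filled cavity. In the NSN class the chromatin is dispersed through the nucleus and the oocyte is still transcribing. In the SN class condensed chromatin forms a ring around the nucleolus and transcription is largely silent, so that the RNA present is mostly RNA stored during growth. SN oocytes are the more competent for development after fertilisation, and NSN oocytes commonly arrest at the two-cell stage. The series title links that arrest to cytoplasmic lattices, fibrous arrays in the oocyte cytoplasm.

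Both SN pools held 50 oocytes, and the NSN pools held 41 (replicate 1) and 44 (replicate 2). Oocytes were released from punctured ovaries and sorted into the classes by staining with the DNA dye Hoechst33342. The treatment protocol, worded alike for every sample, speaks of wild type and Matertm/tm mice at 39 weeks and does not say which pools came from which genotype. Mater is a maternal gene of the oocyte, and the tm allele is a targeted mutation of it. The sample characteristics name embryonic stem cells, whereas titles and descriptions name oocytes, and the titles were followed. The probes are identified only by array names that no table used here pairs with genes, so the label could not be checked against oocyte markers, nor the pools against markers of granulosa or other ovarian cells. Oocyte RNA was amplified in 2 rounds and labelled with Cy3, and the Cy5 channel of each array held a common reference of cell-line RNA mixed 2 to 1 with embryonic stem cell RNA. Every value below is a log2 ratio of Cy3 over Cy5 after background correction and loess normalisation within the array, unless another scale is named, and a difference is the NSN mean minus the SN mean.

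On the shared slide, positions 1 and 2 carried SN and positions 3 and 4 carried NSN, so class and position cannot be told apart. Whether the pools of a class were taken from different animals is not stated, and p-values then reflect only how far pools differ, which may be technical. In pooled RNA, fewer oocytes that carry a transcript and less of it in each oocyte cannot be told apart.

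The probes that carry the main findings are shown first. Each is 60 bases long and written 5′ to 3′ as on the array. The probes Z00057348-1 and Z00002490-1 had the smallest p among probes at least 2-fold lower in NSN, and Z00034805-1 and Z00070859-1 the smallest among those at least 2-fold higher. Capitals in Z00057348-1 mark AATAAA, the sequence of the common polyadenylation signal, which began at base 31 of the probe.
Z00057348-1, lower in NSN: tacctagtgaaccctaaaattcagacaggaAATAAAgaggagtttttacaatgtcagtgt
Z00034805-1, higher in NSN: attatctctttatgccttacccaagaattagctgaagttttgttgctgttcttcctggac
Z00070859-1, higher in NSN: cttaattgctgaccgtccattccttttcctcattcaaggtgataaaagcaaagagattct

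Some probes overlap on one transcribed strand and so give separate readings of nearly the same stretch of RNA. Z00002490-1 is shown with its overlapping partner, together with the pair that had the next largest mean fall and the one pair that held a probe at least 2-fold higher. Capitals mark the bases that both probes of a pair share, 45 in the first pair, 44 in the second and 59 in the third.
Z00002490-1, lower in NSN: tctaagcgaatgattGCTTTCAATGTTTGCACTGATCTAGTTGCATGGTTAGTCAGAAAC
Partner of Z00002490-1: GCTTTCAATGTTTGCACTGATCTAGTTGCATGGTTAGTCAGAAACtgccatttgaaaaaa
Second pair, upstream probe: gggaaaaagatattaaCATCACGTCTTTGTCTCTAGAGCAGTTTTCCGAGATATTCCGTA
Second pair, downstream probe: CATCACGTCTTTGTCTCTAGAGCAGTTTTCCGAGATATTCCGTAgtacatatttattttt
Higher pair, upstream probe: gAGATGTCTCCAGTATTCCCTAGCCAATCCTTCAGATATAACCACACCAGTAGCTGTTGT
Higher pair, downstream probe: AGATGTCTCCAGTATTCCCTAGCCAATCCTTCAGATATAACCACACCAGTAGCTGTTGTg

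The 4 arrays were similar in brightness. Averaged over probe spots, Cy3 intensity was 5046 and 4719 for SN and 5004 and 5361 for NSN. Between 64.7% and 70.9% of the 42006 probes were well above background in Cy3 on an array, and no probe spot was saturated. In Cy5 the SN arrays had 29461 and 29984 probes well above background and the NSN arrays 28731 and 28758, so detection of the reference was lower on both NSN arrays. The part of that in the results below was not tested. Over all probes with a value on the 4 arrays, detected or not, the ratios of both SN arrays correlated with r = 0.985. Those of both NSN arrays correlated with r = 0.986. Between the classes r lay between 0.976 and 0.984, just below both values within a class. The points of these correlations share probes and the reference RNA, and they are descriptions of the arrays.

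Relative to the bulk of probes, most probes differed little between the classes, and the larger differences were mainly lower in NSN. Loess normalisation centres the ratios of each array, so a small median was set by the method. A difference in total RNA between the classes could not be seen. The median difference over the 28424 probes was 0.03, the first percentile was -1.44 and the ninety-ninth percentile was 0.77. At least 2-fold lower in NSN, with both NSN arrays below both SN arrays, were 672 probes, or 2.36 percent. At least 2-fold higher, with the arrays apart in the other direction, were 63 probes, or 0.222 percent. Arrays of the classes did not overlap, at any size of difference, for 44.4 percent of probes, of which 5727 were lower and 6892 higher. At this wider limit the higher probes were therefore the more frequent, and at 2-fold the lower ones. With 2 arrays a class, full separation is frequent even where nothing differs. The wider count is not given for median centring, where the median difference was -0.084.

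The excess of lower probes grew with the size of the difference. Past 1.5-fold with the arrays apart, 1547 probes were lower and 653 higher in NSN. Past 3-fold the counts were 202 and 5, past 4-fold 59 and 0, and past 8-fold 4 and 0. The largest fall was -3.64 and the largest rise 1.91, both log2 differences.

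None of these differences passed the test across all probes. With limma and Benjamini-Hochberg adjustment over the 28424 probes, 0 percent had an adjusted p under 0.05. The smallest adjusted p of limma was 0.112, and 3107 probes had an unadjusted p under 0.05, of which 1821 were lower in NSN and 1286 higher. The median standard error of a difference was 0.16 and the median 95% interval reached 0.42 to either side. For 23092 probes (81.2%) that interval lay within 2-fold either way, so that a larger change lay outside their intervals. For 127 probes the interval lay wholly beyond 2-fold lower, and for 2 wholly beyond 2-fold higher. Without NSN replicate 2 the count wholly beyond 2-fold lower was 319 and that beyond 2-fold higher 17, and without SN replicate 2 the latter was also 17. With Cy3 alone at the 75th percentile 51.6% of intervals lay within 2-fold, 329 wholly beyond it on the lower side and 75 on the higher side. These intervals are not adjusted for the number of probes.

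**Figure D1:**
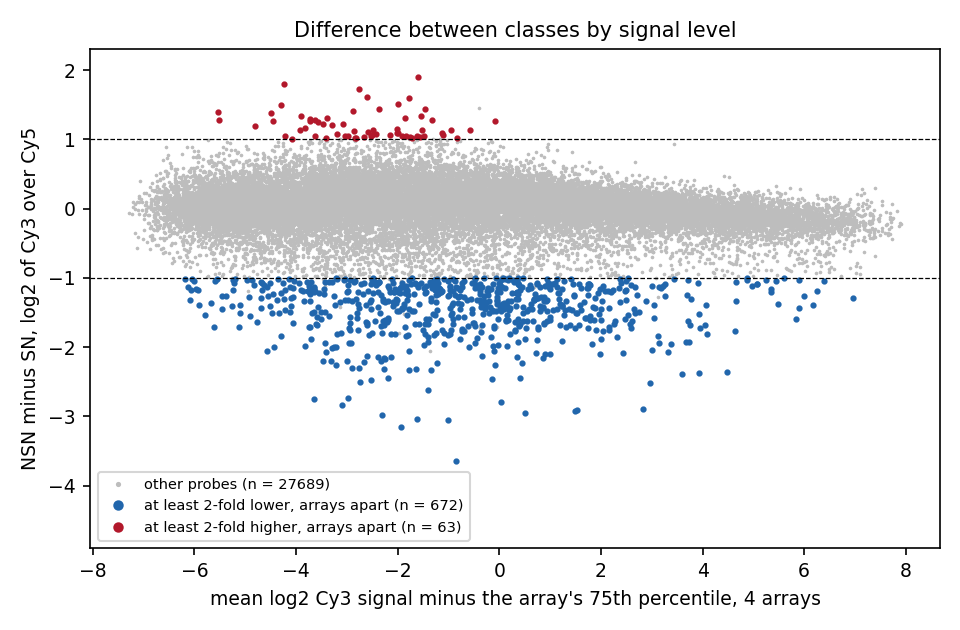
Difference between NSN and SN (log2 of Cy3 over Cy5, vertical axis) of each of the 28424 probes against its mean Cy3 signal over the 4 arrays (log2, minus the 75th percentile of each array, horizontal axis). Blue points are the 672 probes at least 2-fold lower and red points the 63 at least 2-fold higher with arrays apart, dashed lines mark 2-fold, and the lower cloud reaches -3.64 while the upper one ends at 1.91.

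The number of calls depended on how the arrays were scaled and on which arrays shared the fit. When the ratios were centred on the median of each array in place of loess, limma called 130 probes lower in NSN, or 0.457 percent, and none higher, with an adjusted p under 0.05. When all 6 arrays of the series entered 1 fit, limma called 89 probes, or 0.313 percent, of which 87 were lower and 2 higher. In that fit the oocyte pools leave the difference of a probe unchanged and enter only the estimate of its error. Both fits called 64 probes, which were 49.2% of the first list and 71.9% of the second. All 64 were among the 672, with a median difference of -1.88 and a range from -3.64 to -1.10. Z00057348-1 and Z00002490-1 were both among these 64. Neither was well above background in Cy3 in the oocyte pools, whose spread entered the second fit. The fits share the same 4 arrays and are not independent of each other.

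Z00057348-1 had the smallest p of all probes named here. Its ratio was 4.55 and 4.56 in the SN pools and 1.40 and 1.66 in the NSN pools. Its Cy3 signal after the scanner software's own processing was 2350 and 2256 in SN and 253 and 313 in NSN, well above background on all 4 arrays. The pools of a class lay close together and the classes lay far apart, which a choice by smallest p favours. The difference was -3.03 (SE 0.149, 95% interval -3.42 to -2.64, n = 2 pools a class), about 8.18-fold lower, with a limma adjusted p of 0.112. Cy5 did not rise well above background at this probe on any of the arrays, so the level of the ratio rests on a reference at background. With Cy3 alone and quantile normalisation the difference was -2.15.

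Z00002490-1 was at a ratio of 1.35 and 1.24 in the SN pools and -1.56 and -1.81 in the NSN pools. Its Cy3 signal was 3167 and 2723 in SN and 140 and 50.9 in NSN, with both channels well above background on all 4 arrays. The ratio was thus above 0 in both SN pools and below 0 in both NSN pools. The difference was -2.98 (SE 0.151, 95% interval -3.38 to -2.58), with a limma adjusted p of 0.112. It was larger in settings without the offset that background correction adds, at -5.00 for Cy3 alone at the 75th percentile, -4.44 for the authors' processed values and -4.85 for the log ratio as deposited, and -3.50 with an offset of 16. In both oocyte pools, which held 10 oocytes each and lay on other slides, neither Z00057348-1 nor Z00002490-1 was well above background in Cy3.

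Z00034805-1 was at 0.67 and 0.56 in the SN pools and 1.84 and 1.84 in the NSN pools. Its Cy3 signal was 159 and 162 in SN and 572 and 512 in NSN, well above background on all 4 arrays. The difference was 1.22 (SE 0.127, 95% interval 0.89 to 1.56), with a limma adjusted p of 0.129, and it was 0.99 with Cy3 alone and quantile normalisation and 0.66 with median centring. It, too, was not well above background in Cy3 in either of the oocyte pools.

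Z00070859-1 was at 1.70 and 2.01 in the SN pools and 3.58 and 3.32 in the NSN pools. Both NSN pools were above both SN pools, as the choice required, and again Cy5 stayed near background on all 4 arrays. The difference was 1.59 (SE 0.18, 95% interval 1.12 to 2.07), with a limma adjusted p of 0.137. It was 0.78 for the authors' processed values, 0.62 for the log ratio as deposited and 0.90 under median centring, all under 2-fold. In the oocyte pools on the other slides the ratio of this probe was 4.46 and 3.98, above that in both classes.

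**Figure D2:**
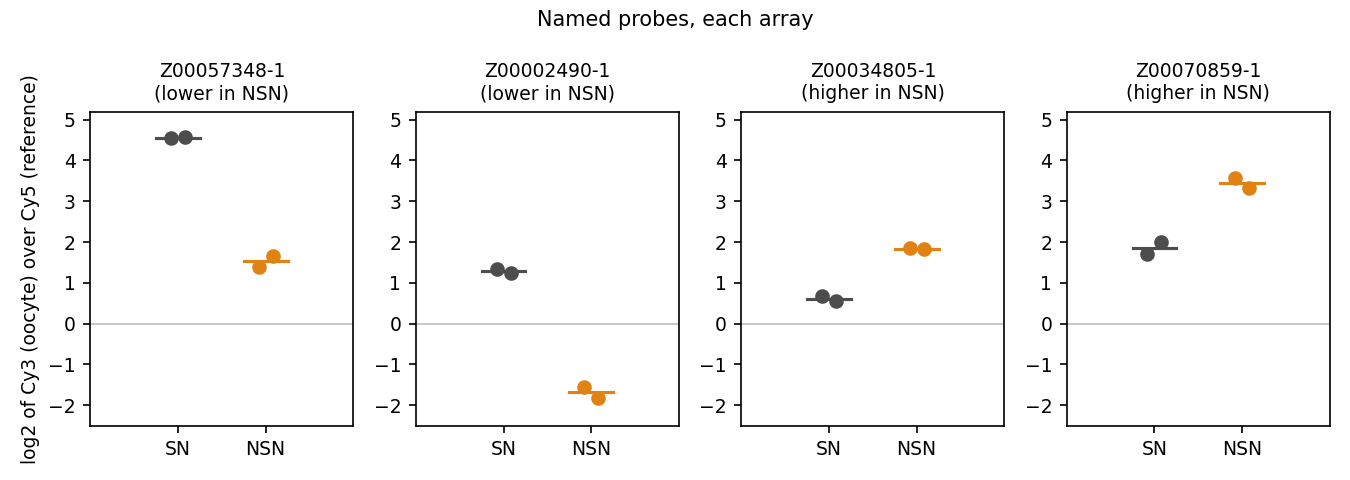
Log2 ratio of Cy3 (oocyte RNA) over Cy5 (reference RNA) of the 4 named probes, with a point for each pool and a line at the mean of the class. Z00057348-1 fell from 4.55 and 4.56 in SN to 1.40 and 1.66 in NSN, whereas Z00034805-1 was at 0.67 and 0.56 in SN and 1.84 in both NSN pools. In each panel the classes do not overlap, which was a condition for choosing these probes.

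Overlapping probes gave closely similar differences, which is a check on the reading of single probes. The table held 984 pairs of probes that share at least 20 bases on the same strand, end to end, and both probes were fitted in 689 of them. Over these 689 pairs the NSN minus SN differences correlated with r = 0.944, and the median gap between the probes of a pair was 0.0785. The difference between both SN pools correlated with r = 0.889 and that between both NSN pools with r = 0.903, so the pairs also shared what differed between pools of 1 class. The probes of a pair share an RNA, its amplification and the array, and some probes belong to several pairs. For 22 pairs of identical sequence r was 0.966. It was 0.963 for 211 pairs offset by 1 to 10 bases, 0.952 for 193 offset by 11 to 20, 0.922 for 142 offset by 21 to 30, and 0.887 for 121 offset by 31 to 40. This correlation was thus lower the fewer bases the probes shared. Other measures did not follow that order, as the correlation of the difference between SN pools was 0.83 for identical pairs and 0.917 at offsets of 1 to 10, and the median gap was 0.0947 at 21 to 30 and 0.0898 at 31 to 40.

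Of the pairs, 28 held a probe at least 2-fold lower in NSN, and in 20 of them both probes were. In the other 8 pairs the second probe also lay below 0, between -0.98 and -0.60. The partner of Z00002490-1 was at 1.60 and 1.51 in SN and at -1.40 and -1.82 in NSN, a difference of -3.16 against -2.98 for Z00002490-1 itself. In the second pair shown the upstream probe was at -1.41 and -1.59 in SN and at -4.87 and -3.94 in NSN. Its downstream partner was at -1.25 and -1.54 in SN and at -4.76 and -3.89 in NSN, so both probes put replicate 1 of NSN lower than replicate 2. Their differences were -2.90 and -2.93. The higher pair read 0.80 and 0.80 in SN against 1.75 and 1.96 in NSN at its upstream probe, a difference of 1.06. Its downstream probe, shifted by 1 base, read 1.00 and 1.01 against 1.78 and 1.81, a difference of 0.78 that did not reach 2-fold.

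**Figure D3:**
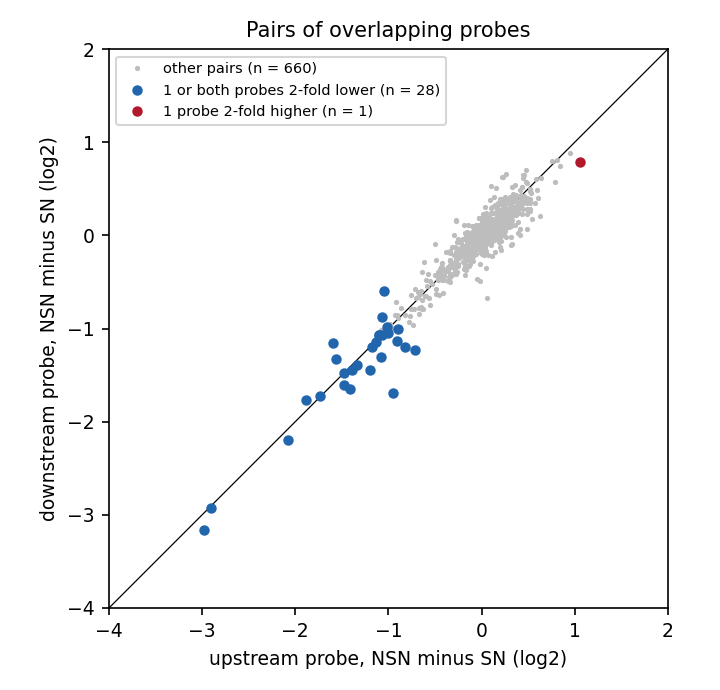
NSN minus SN difference (log2) of the downstream probe against that of the upstream probe for the 689 pairs of probes that share at least 20 bases, with the line of equality. The 28 pairs with a probe at least 2-fold lower (blue) and the 1 pair with a probe at least 2-fold higher (red) lie along the line, and r over the pairs was 0.944.

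The 672 probes were chosen as lower in NSN, and ratios to the reference do not tell which class had changed. Their median ratio was 0.12 and 0.14 in the SN pools and -1.37 and -0.90 in the NSN pools. NSN replicate 1, the pool of 41 oocytes, was below NSN replicate 2 in 530 of the 672 probes, against 14098 of all 28424. SN replicate 1 was above SN replicate 2 in 336 of them. The median SD within NSN was 0.353 and that within SN 0.184, against 0.119 and 0.134 over all probes, so the NSN pools lay further apart at these probes. Without NSN replicate 1 the count of lower probes was 582, of which 440 were among the 672, and without NSN replicate 2 it was 1001, of which 631 were. With 1 pool left out the rule sets 1 array against 2 and is looser, so these counts are not directly comparable with 672. Pool size and pool were not varied separately, and their part in the result was not tested.

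Signal at the lower probes was present in both classes in most cases. Cy3 was well above background on all 4 arrays for 594 of the 672 (88.4%, against 88.3% of all probes fitted), on 3 arrays for 50 and on 2 for 28. In those 28 neither NSN array was well above background, so their difference has only a bound. The reference was well above background on all 4 arrays for 615 and on none for 29. Of the 672, 652 also passed the same rule on Cy3 alone scaled to the 75th percentile of each array, and 576 passed it on Cy3 alone with quantile normalisation. By the same rule on Cy5 alone with quantile normalisation, 6 probes were lower and 1 higher, and none of them was among the 672 or the 63. Over probes, the SD of these Cy5 differences was 0.0993, against 0.39 for Cy3 alone with quantile normalisation and 0.376 for the loess ratio. Quantile normalisation gives the 4 arrays the same distribution, so a shift of the whole Cy5 channel between the classes could not be seen here.

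The 63 higher probes had median ratios of 0.67 and 0.56 in SN and 1.79 and 1.88 in NSN, and a median difference of 1.14. Here the NSN pools lay on both sides of each other, replicate 1 being the lower in 30 of the 63. No array had the reference well above background for 10 of them, or 15.9%, against 7.33% of all probes fitted. On Cy3 alone 61 of the 63 passed the rule after scaling to the 75th percentile, but 15 passed it after quantile normalisation. With median centring 4 of them passed it. Counts with 1 pool left out are not compared here, since the rule then sets 1 array against 2 and is looser. Under these 2 settings the set of higher probes was thus less settled than that of lower probes, of which 576 and 609 passed.

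The share of lower and higher probes also moved with the scaling. Lower probes made up 91.4% of those past 2-fold here, 70.8% with the deposited log ratio, 73.5% with Cy3 alone at the 75th percentile, 80.7% with a smaller offset in the background correction, 97.4% with Cy3 quantile normalisation and 99.6% with median centring. Under each of these settings the lower probes outnumbered the higher ones. The median of all probes was 0.03 with loess and -0.08 with median centring. The move was uneven over Cy3 level. With probes in 8 equal groups from dim to bright, the median of the fourth went from 0.113 to -0.1049. That of the brightest went only from -0.1155 to -0.1438.

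Detection split unevenly over pools as well as classes. Cy3 detection held on both SN arrays and neither NSN array for 455 probes, and on both NSN arrays and neither SN array for 136. Pairs of arrays that crossed the classes were the only ones with signal for 494, 402, 127 and 85 probes, and SN replicate 1 was part of both larger counts. SN replicate 1 alone accounted for 1798 probes detected on a single array, against 421 to 567 for each other array. Just inside the rule for entry, the 1699 probes detected on 2 arrays had a median Cy3 signal of 46.0, and just outside it the 3246 detected on 1 array had 29.1. Probes detected on all 4 arrays had a median signal of 1437.

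Base composition differed between probes that were lower and the rest. G and C made up a median of 41.7% of the lower probes and 45% of all probes fitted. Of probes with under 35% G and C, 3.72% were at least 2-fold lower in NSN. The share was 3.61% from 35% to 40%, 2.59% to 45%, 2.38% to 50%, 1.14% to 55% and 1.01% to 60%, and 0.272% of probes with 60% or more. The share of lower probes thus fell at each step of G and C, though under some alternatives, such as leaving out NSN replicate 1, neighbouring classes changed places. Higher probes were too few to tell whether they had an order. They made up 0.0676% (1 of 1479) under 35%, at most 0.31% (17 of 5481) between 40% and 45%, and 0.068% (1 of 1471) at 60% or more.

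The order by base composition was present at each signal level. Probes under 40% G and C were lower in 289 of 7970 cases (3.63%), and probes with 55% or more in 34 of 4442 (0.765%). With the probes split into 3 equal groups by Cy3 level, the shares were 2.08% and 0.32% in the dimmest group, 6.61% and 0.814% in the middle group, and 2.42% and 1.65% in the brightest group. The gap was thus narrowest among the brightest probes. Probes of 1 gene or of overlapping sequence are not independent, so the shares carry no test, and the part of amplification or labelling in this order was not tested. By position on the array, 2.23% to 2.45% of probes in 4 equal bands of rows were lower. Over 4 equal bands of columns the share lower was 2.71%, 2.50%, 2.09% and 2.14%, the share higher was 0.139%, 0.21%, 0.222% and 0.321%, and the median difference was -0.02, 0.02, 0.05 and 0.07. The median thus rose across the columns, and the part of array position in the counts was not tested.

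**Figure D4:**
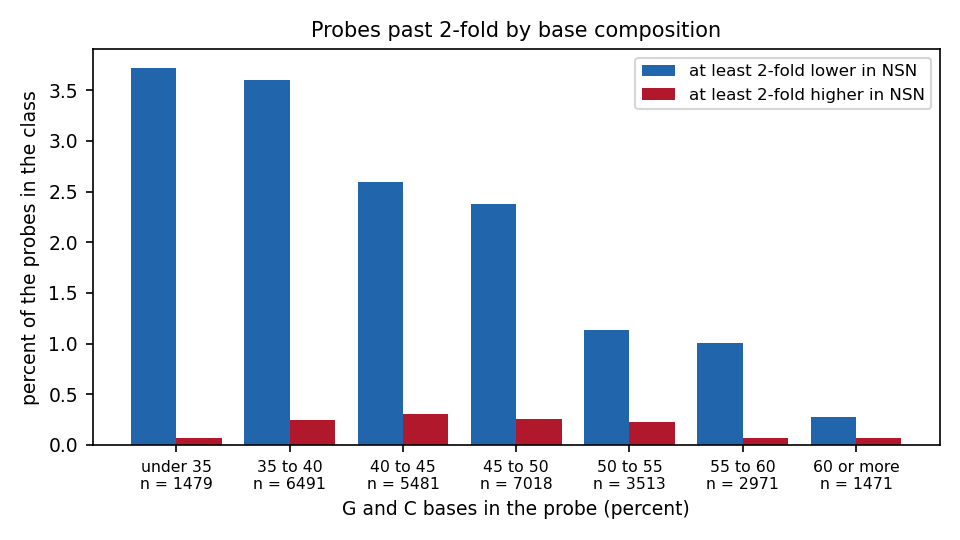
Percent of probes at least 2-fold lower (blue) or higher (red) in NSN, with arrays apart, for 7 classes of G and C content of the probe, with the number of probes in each class under the bars. The blue bars fall from 3.72% under 35% G and C to 0.272% at 60% or more, and the red bars stay at or below 0.31%.

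The order of lower probes by Cy3 level depended on the setting. Split into 8 equal groups from dim to bright, the share of probes at least 2-fold lower was 0.647%, 1.13%, 2.31%, 3.15%, 3.88%, 4.33%, 2.39% and 1.07%. With these values the sixth group held the most. With the deposited log ratio the share instead fell at each step, from 10.7% in the dimmest group to 1.15% in the brightest, and with Cy3 alone at the 75th percentile the ends were at 11.3% and 0.732%. Without SN replicate 2 the brightest group was at 1.80%. No order by level held under all settings, while the brightest group held fewer lower probes than the sixth under each of them.

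Sequence motifs gave a further description. AATAAA was present in 2257 of the fitted probes (7.94%), of which 102 (4.52%) were lower and 5 higher. Such probes are rich in A and T, and among probes of 30% to 40% G and C the shares lower were 4.98% with AATAAA and 3.49% without. Its reverse complement TTTATT was present in 900 probes (3.17%), of which 2.44% were lower, close to the 2.36 percent of all probes. TGTANATA, the sequence bound by Pumilio proteins, which regulate stored RNAs, was present in 323 probes (1.14%), of which 13 (4.02%) were lower and 0 higher. Among probes of 30% to 40% G and C, 8 of 169 probes with it (4.73%) were lower and 3.67% of those without it. Its reverse complement TATNTACA was present in 146 probes, of which 4 were lower. Other motifs of A and T gave shares in the same range, as 4.21% of probes with TATTTAT, 3.43% with ATAAAA, 3.03% with TTTTAT and 2.71% with ATAAATA were lower. Probes without an open reading frame along their whole length, in any of 3 frames on the probe strand, were lower in 3.32% of cases and those with one in 2.16%. Their median G and C content was 38.3% against 45%, and between 30% and 40% G and C the shares were 4.32% and 3.41%. That gap did not hold under all settings. In the same range the deposited log ratio gave 7.609% and 7.784%, and Cy3 alone at the 75th percentile 8.085% and 7.881%. A motif in a probe is a match of letters and not a site shown to be used.

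A location could be given for the few probes that match a promoter window whole. Windows of RefSeq (GRCm38.p6) around annotated gene starts numbered 32851, and 267 probes matched inside one on either strand. Of these, 158 were fitted and matched a single window, and of these 3 (1.90%) passed the 2-fold rule as lower in NSN and 0 as higher, near the background share of 2.36 percent. The rest of the genome was not searched, and the 3 are given because their values were seen, with no test of the group.

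The first of them lies at chr3:110143430-110143489, across an annotated start of Ntng1 and on its strand, inside the span of that gene. Ntng1 encodes netrin G1, a membrane-anchored protein of axon guidance. The probe was at 5.08 and 4.31 in SN and 3.23 and 2.44 in NSN, a difference of -1.86 with a limma adjusted p of 0.258. The pools of each class were about as far apart as in the other class, and the classes did not overlap, as the rule required.

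The second lies at chr10:95324191-95324250, upstream of Cradd, an adaptor protein of cell death signalling, and on the opposite strand to it. No annotated gene span of that table holds these bases. The probe was at 5.29 and 4.78 in SN and 2.51 and 2.63 in NSN, a difference of -2.46 (SE 0.212) with a limma adjusted p of 0.112. The third lies at chr11:24172868-24172927, upstream of the noncoding RNA gene 4930538E20Rik and on the opposite strand, inside the span of Bcl11a, which encodes a zinc finger repressor. It was at 1.52 and 1.13 in SN and -0.55 and 0.57 in NSN, a difference of -1.32 with a limma adjusted p of 0.386, and its NSN pools lay further apart than its SN pools.

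Repeated spots gave the error within an array. The SD over the 5 spots of a repeated probe lay between 0.0186 and 0.148 with a median of 0.0757 over 7 probes and 4 arrays. At the same 7 probes the median SD between pool means was 0.0426 in SN and 0.0278 in NSN. Each pool mean averages 5 spots and varies less than a single spot, so these SDs are not directly comparable. Only 1 of the 7 passed the rule on Cy3 signal and entered the fit, with a difference of 0.01. The SDs thus describe mostly probes that failed that rule. Over all probes fitted the median SD was 0.134 within SN and 0.119 within NSN.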

How the data were processed

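The scanner files hold the intensity of each spot, on a linear scale, with its local background in each channel, as deposited by the authors. Agilent Feature Extraction 9.5.1.1 produced them, per the file headers, and also wrote a processed, dye-normalised intensity and a log10 ratio of Cy5 over Cy3. The deposited table of the authors' processed values is on a log10 scale. The authors set a floor of 2 on it, per the labels, and the same floor was applied here. Of 2 scans per array the brighter was used.

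Intensity was corrected with normexp (offset 50) and loess-normalised within each array in limma 3.58.1 (R 4.3.3), with control spots at weight 0. Spots of a probe were averaged. NSN and SN were compared with limma's moderated test, two-sided, with Benjamini-Hochberg adjustment and a threshold of 0.05. The fit was tested on simulated data. There limma called 17 of 50 probes changed 2-fold, 47 of 50 changed 4-fold and 12 unchanged probes. In the real data limma called 0, though 59 probes were past 4-fold lower. The simulated errors were normal and independent between probes, so the simulated rates need not hold for these data. With 2 arrays a class, the number of arrays limits the precision. Classes, sequences and overlaps of probes were computed in Python 3.11.15.

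Named probes are, among those without a gene name, at most 2 in each direction with the smallest limma p, at least 2-fold apart, with arrays not overlapping and Cy3 well above background on both arrays of the higher class. The gene lists and cell type markers drawn up for this comparison were not used, since probes are not paired with genes here. The rule for the probes, the lists and the classes were chosen with earlier results of these data known. Alternatives were another offset, the deposited log ratio, Cy3 alone, median centring, the other scan, other filters, the authors' processed values, all 6 arrays, a replicate block and leaving out each array. They were also applied to the shares and pairs, a choice made after seeing the data.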

Additional observations from a re-analysis of the deposited data

Results flagged for a closer look

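Among control spots, which enter no comparison, 2 kinds gave Cy3 signal on these arrays above the negative control spots, of which at most 1.31% were well above background on an array. The control (+)E1A_r60_a22 was well above background in Cy3 on 100% of its 32 spots on each array. In Cy5 the share of its spots was 62.5% and 81.2% for SN, against only 18.8% and 28.1% for NSN. The control (+)eQC-39 was well above background in Cy3 on a mean of 95% of its 10 spots. In log2 units its median Cy3 signal reached 7.20 and 6.53 for SN, against 5.80 and 5.56 for NSN, so it was lower on both NSN arrays. Its part in the differences was not tested.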

How the results depend on the processing

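Z00002490-1 kept its direction under all 15 alternatives, and so did Z00057348-1 (13 run), Z00034805-1 (14) and Z00070859-1 (14), with ranges of -5.00 to -2.86, -3.21 to -2.15, 0.66 to 1.88 and 0.62 to 1.84. These probes were chosen with arrays not overlapping, so leaving out 1 array could not reverse a direction. All 6 arrays, the replicate block and other filters leave the difference itself unchanged. Only the other alternatives, which change the values, could have reversed it. Limma called 130 probes with median centring and 89 with all 6 arrays, and 0 under every other alternative that kept all 4 arrays. Fits with an array left out hold 1 pool in a class, and no calls are read from them. At an unadjusted p under 0.05 with all 4 arrays kept, limma gave from 2205 of 17974 probes tested to 4027 of 41999. The former is with the authors' processed values and the latter without a detection filter, and the main fit gave 3107 of 28424. With both channels required 22855 probes were tested, so counts over the alternatives do not share 1 denominator. The lower probes numbered 1538 from the deposited log ratio and 1667 from Cy3 at the 75th percentile, and 582 to 1001 when an array was left out. The higher probes numbered 633 from the deposited log ratio, 213 at offset 16, 602 and 21 from Cy3 at the 75th percentile and by quantiles, 119 from the other scan, 4 under median centring, 37 with both channels well above background, 155 with the authors' processed values, and 124 to 287 when an array was left out. With 1 array left out the rule sets 1 array against 2, which is looser, so those counts are not directly comparable with the others. The cause of these shifts was not tested. Replicate numbers are shared between the classes but nothing says that they pair pools. Same-numbered deviations correlated with r = 0.209, and with the replicate number as a block 0 probes were called, while 3854 had an unadjusted p under 0.05 against 3107. Probes under 40% G and C were lower in 3.15% to 8.02% of cases over the alternatives, and those with 55% or more in 0.698% to 3.02%. The correlation over overlapping pairs lay between 0.669 and 0.967, lowest with the authors' processed values. Gene list counts and medians were not run for want of probe annotation. Weak signal limits 28 of the lower probes, whose Cy3 was near background on both NSN arrays.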
